A study of Arabidopsis thaliana with 12 samples.

Results

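The cold response of wild-type Arabidopsis shoots is described here across all genes, by function, from 6 of the 12 arrays of the series. The members were chosen by their titles: 3 arrays of wild type kept for 3 weeks at 4 °C, called cold shoots below, and 3 arrays of wild type at 22 °C, called warm shoots. All 6 are of the Col-0 accession, raised on soil at 22 °C for about 23 days with 12 h of light a day, and each group holds 3 biological replicates of the whole aerial part. Cold plants were then kept at 4 °C under the same photoperiod. A treatment text that all samples share places the harvest 4 h after lights on. They were therefore 3 weeks older than warm plants, and temperature and age cannot be told apart in this contrast. A bracketed mark in the warm titles is not explained by the labels. The other 6 arrays are of sid2-1, a mutant of the isochorismate synthase that makes salicylic acid, at both temperatures.

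Cold acclimation is the gain in freezing tolerance that plants reach during days to weeks at low, non-freezing temperature. It involves transcription factors of the CBF family and their targets, among them dehydrins and the COR proteins that protect membranes. Leaves in the cold also accumulate soluble sugars in the vacuole, slow their expansion growth and adjust photosynthesis and respiration to one another.

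Values are log2 signals, and a change is the mean of the 3 cold arrays minus that of the 3 warm arrays on the log2 scale, with its standard error. A probe set is the group of probes that reads a transcript, and "rose" or "fell" is used of those that passed limma's test at an adjusted p under 0.05. Among 12422 probe sets averaging above 4, replicate arrays correlated with each other at 0.944 to 0.972 in cold shoots and at 0.959 to 0.967 in warm shoots. Cold replicate 2 stood apart from its group, with a mean correlation of 0.951 with the other cold arrays against 0.965 for replicate 1 and 0.958 for replicate 3. It was the highest cold array in 51.9% of the genes with a mean above 4 that rose with no overlap. For the main lists the count of calls is also given over fits that leave out 1 wild-type array at a time, and for the 6 wild-type arrays alone. Leaf markers were bright on all 6 arrays. RCA, the activase of Rubisco, had 13.51, 13.16 and 13.61 in cold shoots and 13.74, 14.01 and 14.00 in warm shoots. The root markers EXPA7 and EXPA18 and the pollen markers ACT12 and AGL66 lay between 2.2 and 2.32 on every array. TUA1, an alpha-tubulin gene best known from pollen, was an exception at 8.12, 8.11 and 8.18 in cold shoots and 7.57, 7.22 and 7.09 in warm shoots, and LPR2 of the root list is described with the other single genes below. In whole shoots, fewer cells of a type and less RNA per cell cannot be told apart.

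After 3 weeks of cold, genes of central carbon metabolism, mitochondrial electron transport, secretory protein folding and defence were among those that rose. Genes of cell wall growth, sulfur and glucosinolate metabolism and some of photosynthesis were among those that fell. Of 22746 probe sets, 1549 rose and 1407 fell, together 13.0%, and 1954 of them (8.59%) changed at least 2-fold. Taking 1 probe set for each of 13355 annotated genes, 777 rose (5.82%) and 706 fell (5.29%). Calls were more frequent among bright genes, at 20.4% of the 6655 genes with a mean above 4 (10.4% higher and 9.96% lower). In 44.4% of these the 3 cold and 3 warm values did not overlap. The median change of all probe sets was 0.00. The 69 genes encoded in the plastid gave 6 calls, and the 989 annotated pseudogenes gave 6, which is 0.607% of them. Leaving out cold replicate 2 gave 1041 probe sets higher and 824 lower, and leaving out warm replicate 3 gave 1024 higher and 864 lower. Of the 191 genes with a call that the rule for named genes takes, 63 were not called without cold replicate 2. Without warm replicate 3, 68 were not called, and none changed sign in either fit. Such losses are marked below for some genes only, so an unmarked call need not hold.

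**Figure D1:**
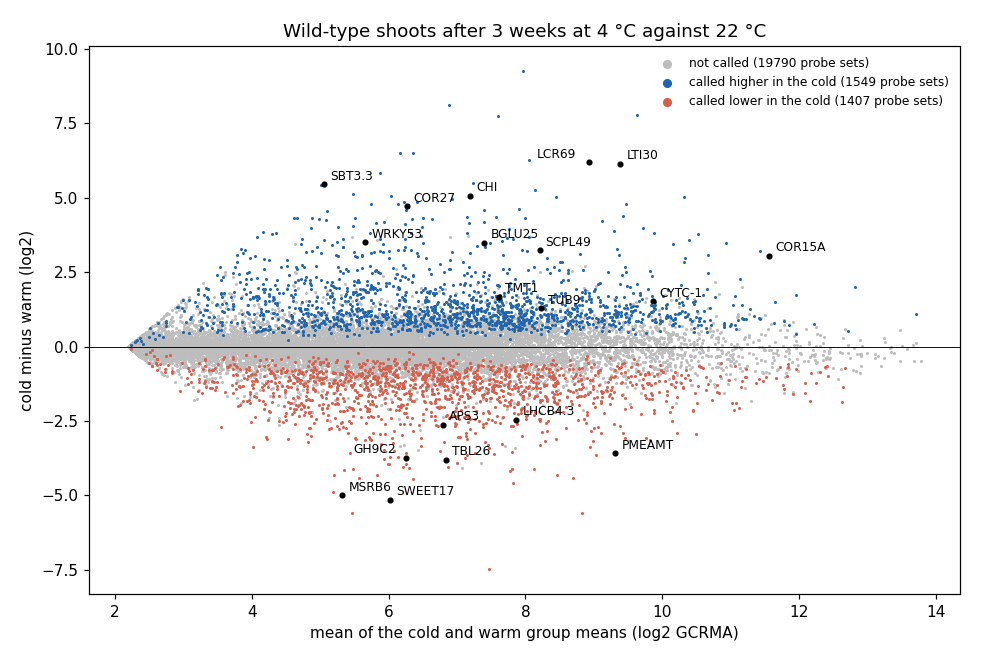
Each point is 1 of 22746 probe sets, with the mean of the cold and warm group means on the x axis (log2 signal) and the cold minus warm change on the y axis (log2). Blue points rose (1549), red points fell (1407), grey points did not pass the test, and labelled genes (black) are described in the text.

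Among genes with both means above 4 and no overlap between the 3 cold and the 3 warm values, the 15 largest rises ran upward from a log2 change of 3.62 and the 15 largest falls downward from -3.35. Only 3 of the 15 rising genes and 3 of the 15 falling ones carry a symbol in the annotation used, and the others are given by locus without a role. LCR69 (AT2G02100), a small cysteine-rich protein of the defensin type, had 12.20, 11.56 and 12.30 in cold shoots and 6.11, 5.78 and 5.60 in warm shoots. Its change of 6.19 ± 0.36 was the largest of this set (limma adjusted p = 0.000112). The rest of the rising genes were LTI30, CHI, AT5G18470, AT5G55450, AT1G11210, AT1G52200, AT3G60420, AT5G51570, AT4G01870, AT5G62360, AT5G39670, AT3G16670, AT3G55580 and AT1G78410. AT5G51570 had the smallest standard error of these, with 9.33, 9.69 and 9.47 in cold shoots and 5.0, 5.36 and 5.54 in warm shoots (change 4.2 ± 0.17, limma adjusted p = 3.67e-05). In 9 of the 15 the highest cold array was replicate 2.

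AT1G73600 had the largest fall of the set, with 6.39, 5.57 and 6.12 in cold shoots and 11.40, 11.10 and 12.38 in warm shoots (change -5.60 ± 0.46, limma adjusted p = 0.000441). It is followed by AT3G28270, AT3G48460, AT4G23670, AT5G59130, TBL26, GH9C2, AT1G62510, AT1G04350, PMEAMT, AT4G33660, AT1G27030, AT2G32150, AT1G75280 and AT5G21100. PMEAMT (AT1G48600) encodes a phosphoethanolamine methyltransferase, an enzyme on the route to phosphocholine and membrane lipids. Its level was 7.80, 6.89 and 7.88 in cold shoots and 11.29, 10.61 and 11.43 in warm shoots, a change of -3.59 ± 0.29 (limma adjusted p = 0.00042). AT1G75280 had the smallest standard error of these falls, at 7.55, 6.92 and 7.30 in cold shoots and 10.51, 10.65 and 10.73 in warm shoots (change -3.37 ± 0.19). In all 15 falling genes the lowest cold array was replicate 2.

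**Figure D2:**
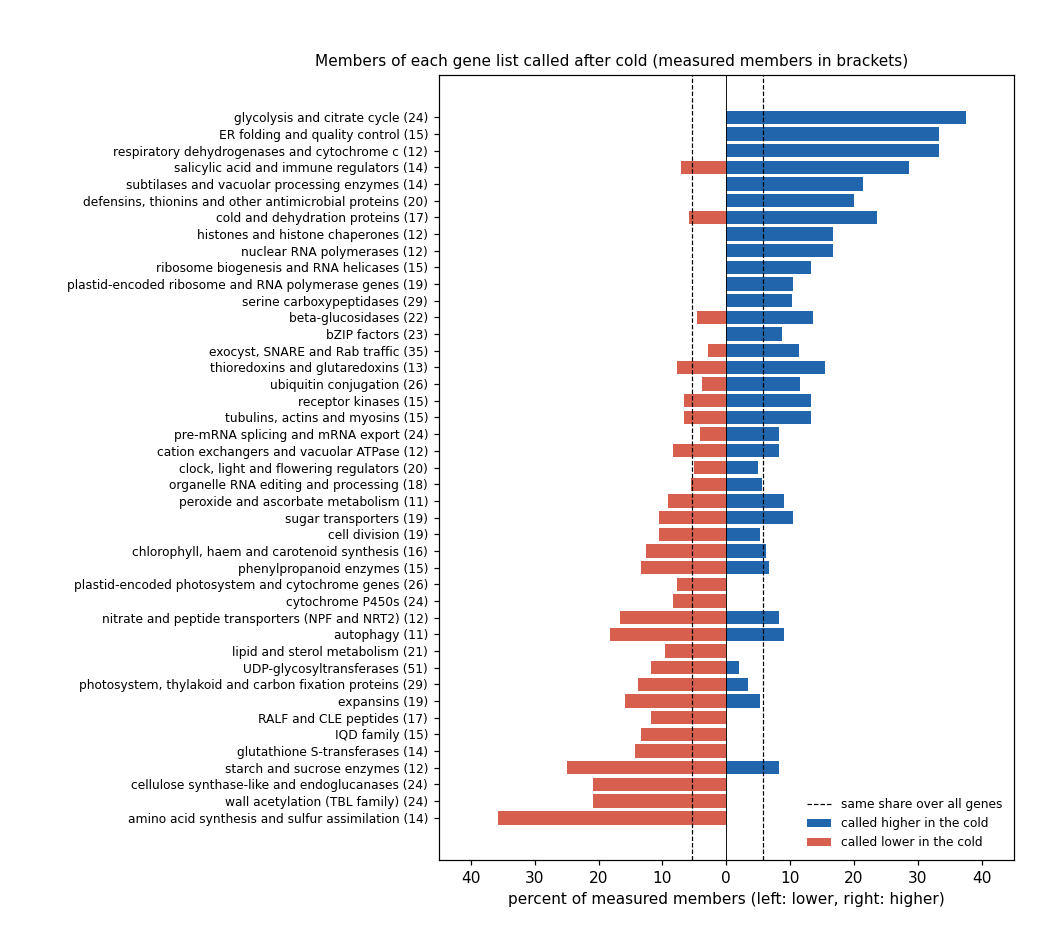
Bars give, for each functional gene list with at least 10 measured members and at least 2 calls, the percent of measured members that rose (blue, right) or fell (red, left), with the number measured in brackets. Dashed lines mark the same shares over all genes, 5.82% higher and 5.29% lower. Among genes with a mean above 4 these shares were 10.4% and 9.96%. Glycolysis and citrate cycle genes reached 37.5% higher, and amino acid and sulfur genes 35.7% lower.

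Functional lists were read against those shares, and in all 68 of 78 lists had at least 1 member that changed. A mean above 4 was seen in 19 of 24 glycolysis and citrate cycle genes and in all 14 amino acid and sulfur genes. For such lists the shares of bright genes, 10.4% higher and 9.96% lower, are the closer comparison. In the list of cold and dehydration genes 4 of 17 measured members rose (23.5%) and 1 fell. A higher cold mean was seen in 13 of the 17, and the median change was 0.38. LTI30, a dehydrin, had 12.49, 12.13 and 12.75 in cold shoots and 5.72, 6.28 and 6.96 in warm shoots. COR27, a cold-regulated protein linked to the circadian clock, had 8.30, 8.38 and 9.21 in cold shoots and 4.02, 3.68 and 4.03 in warm shoots. COR15A and COR15B, the chloroplast membrane protectants, were the other rising members, with no overlap between groups in any of the 4. The dehydrin COR47 had a change of 1.33 that did not pass limma's test (adjusted p = 0.104). DI19, a zinc-finger protein first described as drought-induced, fell by 1.55 (limma adjusted p = 0.0498) but not without cold replicate 2 (limma adjusted p = 0.158). The late-embryogenesis genes LEA4-5, LEA18 and AtLEA4-1 lay between 2.2 and 2.79 on all 6 arrays.

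Sugar handling changed through a few members with opposite signs. TMT1, a transporter that loads monosaccharides into the vacuole, had 8.46, 8.28 and 8.63 in cold shoots and 7.09, 6.52 and 6.73 in warm shoots (change 1.68 ± 0.30, limma adjusted p = 0.00816). SWEET17, a fructose channel of the vacuolar membrane, had 3.04, 4.3 and 2.98 in cold shoots and 8.74, 7.89 and 9.17 in warm shoots. Its change of -5.16 ± 0.48 was the largest of any list member that fell, although 2 of its cold values are near the bottom of the scale (limma adjusted p = 0.000598). SWEET1, a glucose channel of the plasma membrane, rose by 1.39 and SFP1, of the monosaccharide transporter family, fell by 1.35. With 2 members higher and 2 lower of 19, the transporter list as a whole had a median change of 0.00. Among 12 starch and sucrose enzymes 1 rose and 3 fell. The phosphoglucan water dikinase PWD (AT5G26570), which phosphorylates starch ahead of its breakdown, had 10.24, 9.58 and 10.03 in cold shoots and 7.35, 7.19 and 6.80 in warm shoots. It rose by 2.84 ± 0.22 (limma adjusted p = 0.00031), while AT4G24450, a relative under the same symbol, fell by 1.59. The starch branching enzyme SBE2.2 fell by 1.25 and the UDP-sugar pyrophosphorylase USP by 1.00.

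Of 24 measured glycolysis and citrate cycle genes, 9 rose (37.5%) and none fell, with a median change of 0.26 against 0.00 over all genes. ACLA-3, a subunit of the ATP-citrate lyase that makes cytosolic acetyl-CoA, had 7.65, 8.81 and 7.77 in cold shoots and 6.43, 6.89 and 6.46 in warm shoots (change 1.48 ± 0.29, limma adjusted p = 0.0127). ACLA-2 of the same enzyme rose by 0.74. The pyruvate decarboxylase PDC2 rose by 1.18, and the pyruvate dehydrogenase subunits LTA3 and MAB1 rose by 1.12 and 0.58. LTA3 had 7.22, 7.83 and 7.61 in cold shoots and 6.30, 6.46 and 6.55 in warm shoots. The isocitrate dehydrogenases cICDH, IDH-V and IDH-VI rose by 0.99, 0.84 and 0.83. Cold and warm values overlapped in none of these genes, and the count was 6 to 9 with 1 array left out (6 without warm replicate 1 or 3) and 5 in the wild-type arrays alone.

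The inner mitochondrial membrane gave 4 rising members of 12 and none falling. CYTC-1, a cytochrome c gene, had 10.65, 10.88 and 10.37 in cold shoots and 9.29, 8.80 and 9.23 in warm shoots (change 1.53 ± 0.22, limma adjusted p = 0.0033). Its paralog CYTC-2 had 8.04, 7.87 and 7.75 in cold shoots and 7.95, 7.70 and 8.03 in warm shoots, and these values overlapped. NDB2 and NDB1, external NAD(P)H dehydrogenases that pass electrons to ubiquinone without pumping protons, rose by 1.84 ± 0.30 and 1.51 ± 0.19. NDB2 had 8.68, 8.85 and 7.84 in cold shoots and 6.04, 6.80 and 7.01 in warm shoots, while NDB3 and NDB4 stayed between 2.21 and 2.99 on all arrays. SDH2-1, an iron-sulfur subunit of succinate dehydrogenase, rose by 1.00 (limma adjusted p = 0.00532), and its paralog SDH2-2 had a change of 0.28 that did not pass (limma adjusted p = 0.435). A dimmer probe set of SDH2-1 lay between 2.2 and 2.41 on all arrays. Of 10 genes for the breakdown of branched-chain amino acids and lysine 1 rose, the methylmalonate-semialdehyde dehydrogenase ALDH6B2, by 0.85.

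**Figure D3:**
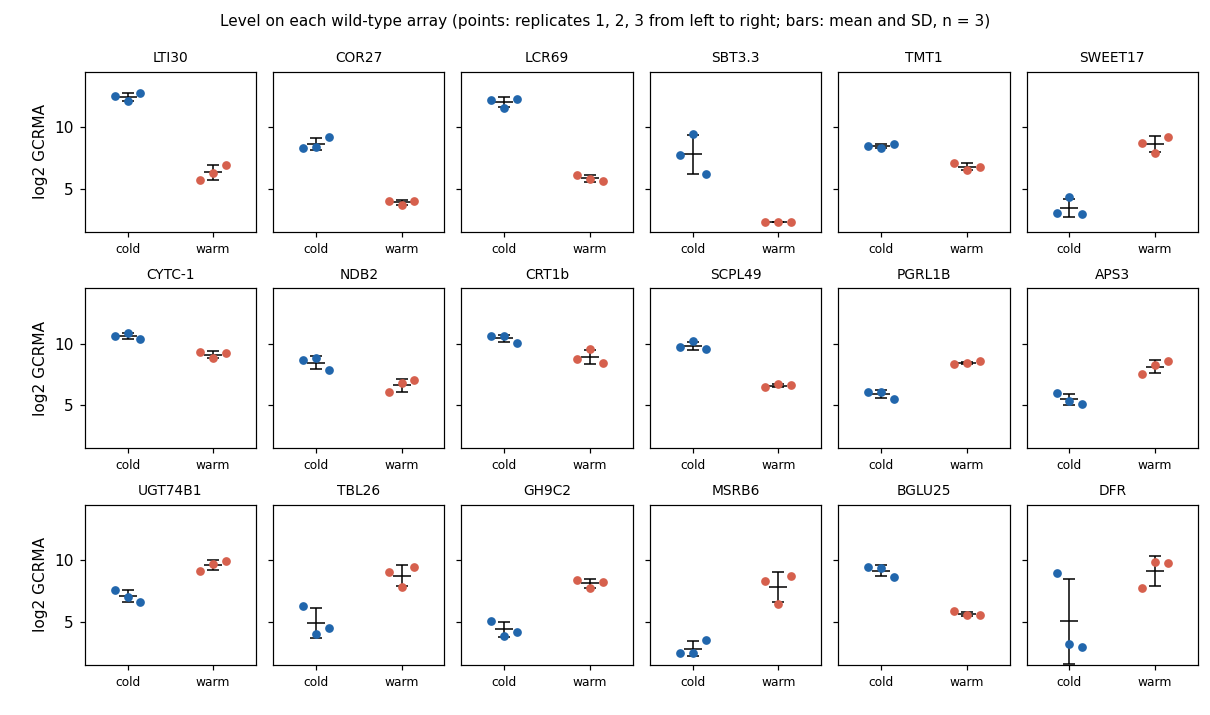
Log2 signal of 18 genes on each array, with cold shoots (blue) left of warm shoots (red); points are replicates 1, 2 and 3 from left to right and bars the mean ± SD (n = 3). In 17 genes the groups do not overlap, and in DFR cold replicate 1, at 8.99, lies among the warm values.

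Of 29 genes for photosystem, thylakoid and carbon fixation proteins, all with a mean above 4, 4 fell and 1 rose. The share that fell was 13.8%, against 9.96% of genes with a mean above 4. A lower cold mean was seen in 26 of the 29, and the median change was -0.54. For comparison, 50.6% of all genes with a mean above 4 had a lower cold mean. In 17 of the 29 all cold values lay below the warm values, which held for 22.0% of genes with a mean above 4. PGRL1B, a protein of cyclic electron flow around photosystem I, had 6.08, 6.08 and 5.53 in cold shoots and 8.33, 8.42 and 8.55 in warm shoots (change -2.54 ± 0.23, limma adjusted p = 0.000566). LHCB4.3, a minor antenna protein of photosystem II, fell by 2.47, whereas its paralog LHCB4.1 had 13.05, 12.78 and 13.18 in cold shoots and 13.51, 13.18 and 13.23 in warm shoots, with overlap. NdhN, a subunit of the thylakoid NDH complex, fell by 1.79. HPR, the peroxisomal hydroxypyruvate reductase of photorespiration, had 11.30, 10.36 and 11.68 in cold shoots and 12.40, 12.79 and 12.98 in warm shoots (change -1.61 ± 0.32, limma adjusted p = 0.0138). The rising member was AT4G38100, known as CURT1D, one of the proteins that bend thylakoid membranes, with 7.84, 7.85 and 7.82 in cold shoots and 6.82, 6.46 and 6.68 in warm shoots. Cold replicate 2 was the lowest of the 6 arrays in 24 of the 29 genes. The list mean was 10.01, 9.51 and 10.22 in cold shoots and 10.51, 10.52 and 10.56 in warm shoots. The count of falls was 4 without cold replicate 2 but 10 without cold replicate 3, 3 to 5 without any other array, and 1 in the wild-type arrays alone.

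Of the 69 plastid-encoded genes 6 were called, a smaller share than the 20.4% of bright genes (10.4% higher and 9.96% lower). Of 26 genes for photosystems and the cytochrome complex, 2 fell and none rose, 23 had a lower cold mean, and the median change was -0.44. The photosystem II genes psbC and psbF fell by 1.05 and 0.58. psbF had 11.55, 11.34 and 11.75 in cold shoots and 11.98, 12.12 and 12.27 in warm shoots, with no overlap, and neither call held without cold replicate 2 (limma adjusted p = 0.111 and 0.115). Of 19 genes for plastid ribosomal proteins and RNA polymerase, 2 rose and none fell, and the median change was 0.31. rps3 had 11.51, 11.48 and 11.90 in cold shoots and 10.85, 10.42 and 10.79 in warm shoots (change 0.94 ± 0.18, limma adjusted p = 0.0105), and rpl22 rose by 0.81. Both calls held without cold replicate 2. Neighbours in this list were uneven, since rps18 had a change of -0.50 and rpl16 of 1.04, neither past the test. The 16 plastid ATP synthase and NDH genes gave no call, with a median of -0.29.

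Organelle maintenance and pigment genes changed singly. In tetrapyrrole and carotenoid synthesis the glutamate-1-semialdehyde aminotransferase GSA1 rose by 0.91, and the lycopene cyclase LYC and the chlorophyll b reductase NOL fell by 0.86 and 0.73, of 16 measured genes. No gene of that list was called without cold replicate 1, warm replicate 2 or warm replicate 3, or in the wild-type arrays alone. Of 18 plastid and mitochondrial RNA-processing genes, the editing factor OTP81 rose by 1.49 and CRR28 fell by 0.78. OTP81 had 2.24, 2.63 and 2.40 in warm shoots, near the bottom of the scale. The NDH assembly factor CRR41 fell by 1.12 among 9 assembly factors, 8 of which had a lower cold mean. The mitochondrial cytochrome c maturation gene ccb452 fell by 1.90. Calls on GSA1, LYC, CRR28 and CRR41 were lost without cold replicate 2 (limma adjusted p = 0.099, 0.115, 0.115 and 0.116).

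Of 15 measured genes of endoplasmic reticulum (ER) folding and quality control, 5 rose (33.3%) and none fell, and the median change was 0.50. BZIP60, a membrane-tethered transcription factor of the unfolded protein response, had 8.83, 9.21 and 9.0 in cold shoots and 6.70, 7.18 and 7.37 in warm shoots (change 1.93 ± 0.27, limma adjusted p = 0.00293). CRT1b, a calreticulin that holds newly made glycoproteins, had 10.62, 10.58 and 10.07 in cold shoots and 8.73, 9.54 and 8.43 in warm shoots. The translocation partner ATERDJ2A rose by 1.13, the site-1 protease S1P by 1.26 and the Derlin DER2.2 by 0.70. The other stress sensors BZIP28 and BZIP17 had changes of 0.11 and 0.38, and their cold and warm values overlapped. Without cold replicate 2 the count was 2, those of BZIP60 and ATERDJ2A. It was also 2 without cold replicate 1, warm replicate 1 or warm replicate 3, and 3 in the wild-type arrays alone. Outside the ER, Hsp70-2 rose by 2.16 (limma adjusted p = 0.00154) as the only call among 16 cytosolic and organellar chaperones.

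Single genes of membrane traffic and turnover changed in both directions. The shares that rose in the traffic and ubiquitin lists were near the 10.4% of bright genes that rose. In 35 genes of exocyst, SNARE and Rab traffic 4 rose (11.4%) and 1 fell, with a median of 0.05. SEC1B and KEU, Sec1-type regulators of vesicle fusion, rose by 1.57 and 1.34, and ATRER1C1 and ATRER1A, which return proteins to the ER, rose by 0.89 and 0.86. KEU had 7.47, 8.06 and 7.57 in cold shoots and 6.30, 6.58 and 6.21 in warm shoots, with no overlap. PRA1.B4 fell by 0.99 and the ESCRT component SNF7.2 by 1.1. In autophagy ATG8D, a membrane-anchored ubiquitin-like protein, rose by 1.97 (though not without cold replicate 2, limma adjusted p = 0.11), whereas its paralog ATG8H fell by 1.48 and the conjugating enzyme ATG3 by 0.76. ATG8H had 4.18, 4.34 and 4.05 in cold shoots and 5.95, 5.39 and 5.67 in warm shoots. Ubiquitin genes gave 3 rises (11.5%) and 1 fall of 26. The proteasome subunit RPN12a and the proteases UBP25 and UBP22 rose by 0.94, 0.94 and 0.71, and the conjugating enzyme UBC29 fell by 1.82. The U-box ligases PUB25 and PUB26 fell by 0.95 and 0.54, the second not without cold replicate 2 (limma adjusted p = 0.158).

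A few secreted and vacuolar proteases rose, and no member of the lists used here fell. These lists were drawn from symbols, which most genes lack, so they can miss family members that changed. The falling loci given above without a role, AT5G59130 among them, could not be placed by symbol. SCPL49 and scpl35, serine carboxypeptidases, rose by 3.24 ± 0.18 and 3.16 ± 0.37, and scpl29 by 0.87, of 29 measured family members (10.3%, against 10.4% of bright genes) whose median change was 0.00. SCPL49 had 9.74, 10.18 and 9.56 in cold shoots and 6.46, 6.69 and 6.62 in warm shoots (limma adjusted p = 9.61e-05). SBT3.3, a subtilase linked to immune priming, had 7.72, 9.40 and 6.23 in cold shoots and 2.34, 2.32 and 2.31 in warm shoots. Its warm level is at the bottom of the scale, so the size of the change, 5.46 ± 0.64, depends on the background correction. The related SBT3.5 rose by 2.44 and the vacuolar processing enzyme BETA-VPE by 1.81, while the list of 14 had 3 calls. There was 1 call without cold replicate 1, cold replicate 2 or warm replicate 1 and in the wild-type arrays alone.

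Calls among transcription and RNA handling genes were few, and their shares are to be read against 10.4% of bright genes higher. NRPB9B and NRPE7, subunits of RNA polymerases II and V, rose by 1.98 ± 0.25 and 0.91 ± 0.12, out of 12 polymerase genes with a median of 0.25. NRPB9B had 6.52, 6.97 and 6.89 in cold shoots and 4.46, 4.62 and 5.36 in warm shoots. Of 24 splicing and export genes 8.33% rose: the splicing factors ATU2AF35A and MAC3A by 0.85 and 0.81, while the export factor THO1 fell by 0.66. The RNA helicase PRH75 rose by 1.32 and the ribosomal protein gene PGY1 by 1.14 among 15 ribosome biogenesis genes. HTB2, a histone H2B gene, had 7.87, 7.30 and 7.52 in cold shoots and 5.21, 4.38 and 5.16 in warm shoots (change 2.65 ± 0.28, limma adjusted p = 0.000923). The histone chaperone SGA2 rose by 0.87. Cell-division genes did not move with them: of 19 measured, KINESIN-13A rose by 0.60, and the plastid-division gene FTSZ2-2 and the cyclin-dependent kinase inhibitor SIM fell by 1.36 and 1.21. MAC3A, THO1, PGY1, SGA2, KINESIN-13A and SIM lost their calls without cold replicate 2 (limma adjusted p = 0.14, 0.12, 0.066, 0.07, 0.091 and 0.059). No call was made among 17 chromatin remodelling and 22 DNA repair genes.

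Of 24 cellulose synthase-like and endoglucanase genes 5 fell (20.8%) and none rose, and the count was 5 without any 1 array and in the wild-type arrays alone. GH9C2, an endoglucanase, had 5.09, 3.87 and 4.17 in cold shoots and 8.42, 7.71 and 8.23 in warm shoots (change -3.74 ± 0.41, limma adjusted p = 0.00117). GH9B7 of the same family fell by 2.92 and CSLA01, of the mannan synthase family, by 3.09. CSLC5, of the family that makes the xyloglucan backbone, fell by 2.18, and COB, the COBRA protein needed for oriented cellulose, by 0.80. Of 24 genes of the TBL family, which acetylates wall polysaccharides, 5 fell (20.8%) and none rose. TBL26 had 6.31, 4.03 and 4.46 in cold shoots and 9.06, 7.78 and 9.40 in warm shoots (change -3.81 ± 0.66, limma adjusted p = 0.00772), and TBL28 and TBL25 fell by 1.83 and 1.25. The other members that fell were AT2G31110 (TBL40) and AT5G06700 (TRICHOME BIREFRINGENCE). Medians of these lists were -0.06 and -0.05, and 10 and 11 of their members had a mean above 4. With 1 array left out 3 to 5 TBL genes fell (3 without cold replicate 1 or 2 or warm replicate 1 or 3), and 2 in the wild-type arrays alone.

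Wall-loosening families were mixed. The expansins EXPA8, EXPB3 and EXPA4 fell by 2.25, 2.22 and 1.98. Without cold replicate 2 the calls on EXPA8 and EXPB3 were lost (limma adjusted p = 0.0985 and 0.0696), and 1 expansin fell without warm replicate 2 or 3 too. EXPA4 had 4.99, 4.68 and 4.81 in cold shoots and 6.45, 6.81 and 7.17 in warm shoots, with no overlap. EXLA1, an expansin-like gene, rose by 2.04 ± 0.55 (limma adjusted p = 0.0425), with cold values of 8.01, 5.84 and 7.39 and warm values of 5.66, 4.77 and 4.68. With 1 wild-type array left out EXLA1 was called only without cold replicate 2, and it was not called in the wild-type arrays alone. Among pectin enzymes PME61 fell by 1.97 and ATPMEPCRB rose by 2.34, and none of the 10 xyloglucan endotransglucosylases passed. The beta-tubulin genes moved apart: TUB9 rose by 1.29 ± 0.13 (limma adjusted p = 0.000747) and TUB6 fell by 1.67 ± 0.26 (limma adjusted p = 0.00517). TUB9 had 9.03, 8.81 and 8.80 in cold shoots and 7.37, 7.61 and 7.79 in warm shoots. TUB6 had 7.79, 6.67 and 7.44 in cold shoots and 8.90, 8.85 and 9.15 in warm shoots.

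In sulfur and amino acid synthesis 5 of 14 members fell (35.7%), with a median of -0.44. The count was 3 without cold replicate 1 or 2, 2 without warm replicate 2 or 3, and 1 in the wild-type arrays alone. APS3, an ATP sulfurylase that starts sulfate assimilation, had 5.96, 5.35 and 5.12 in cold shoots and 7.53, 8.26 and 8.56 in warm shoots (change -2.64 ± 0.35, limma adjusted p = 0.0024). The sulfite reductase SIR fell by 0.42, the histidine enzyme HISN5B by 0.66 and the ornithine aminotransferase DELTA-OAT by 0.61. BCAT4, the aminotransferase that opens methionine chain elongation for glucosinolates, is in this list and the next and fell by 2.19. Glucosinolates are sulfur-rich defence compounds of the cabbage family, and 4 of the 7 measured genes for their synthesis and transport fell. UGT74B1, the glucosyltransferase of the glucosinolate core, had 7.60, 7.02 and 6.63 in cold shoots and 9.14, 9.65 and 9.95 in warm shoots (change -2.50 ± 0.35, limma adjusted p = 0.00304). AOP1 fell by 1.89 and the transporter GTR1 by 1.16, whereas GTR2, with a change of -0.28, had overlapping values. There were 2 calls without cold replicate 2 or 3 or warm replicate 3, and 1 in the wild-type arrays alone.

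Few of the enzymes that conjugate or oxidize small molecules changed, and those that did mostly fell. The shares that fell were 11.8% of UDP-glycosyltransferases, 8.33% of cytochromes P450 and 14.3% of glutathione transferases. For comparison, 5.29% of all genes fell, and 9.96% of those with a mean above 4. Of 51 UDP-glycosyltransferases 6 fell and 1 rose: beside UGT74B1, UGT72E1 for monolignols fell by 2.08, GT72B1 by 1.89, the auxin glucosyltransferase IAGLU by 1.84, UGT88A1 by 1.22 and UGT71C4 by 0.79. The rising one was UGT76B1, at 2.61, 3.02 and 2.81 in cold shoots and 2.2 on each warm array, the bottom of the scale. The cytochromes P450 CYP71B26 and CYP78A9 fell by 2.73 and 2.42, and the glutathione transferases GSTU20 and GSTL3 by 1.75 and 1.00. Neither transferase was called without cold replicate 2 (limma adjusted p = 0.1202 and 0.0574), and none of that list without warm replicate 2 or 3 or in the wild-type arrays alone. CYP71B26 had 7.71, 7.51 and 7.70 in cold shoots and 10.05, 10.47 and 10.59 in warm shoots. In phenylpropanoid synthesis HCT fell by 1.05, while CCOAMT (AT1G67980) had 5.02, 7.89 and 5.85 in cold shoots and 2.59, 2.39 and 2.36 in warm shoots. Of 22 beta-glucosidases 3 rose and 1 fell. BGLU25 had 9.42, 9.37 and 8.65 in cold shoots and 5.84, 5.55 and 5.58 in warm shoots (change 3.49 ± 0.25, limma adjusted p = 0.000305), BGLU16 and BGLU42 rose by 1.94 and 1.07, and BGLU40 fell by 2.97.

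Flavonoid genes showed a split within the cold group. DFR, the dihydroflavonol reductase of anthocyanin synthesis, had 8.99, 3.21 and 2.92 in cold shoots and 7.71, 9.85 and 9.79 in warm shoots. UF3GT, which glucosylates anthocyanidins, had 7.52, 3.26 and 2.71 in cold shoots and 6.69, 8.17 and 8.67 in warm shoots. Cold replicate 1 lay among the warm values and the other cold arrays near the bottom of the scale. All 6 members with a mean above 4 were highest, among cold arrays, in replicate 1, and none of the 8 measured members passed the test. DFR had a change of -4.08 ± 2.15 (limma adjusted p = 0.287). The cause of the split was not tested.

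**Figure D4:**
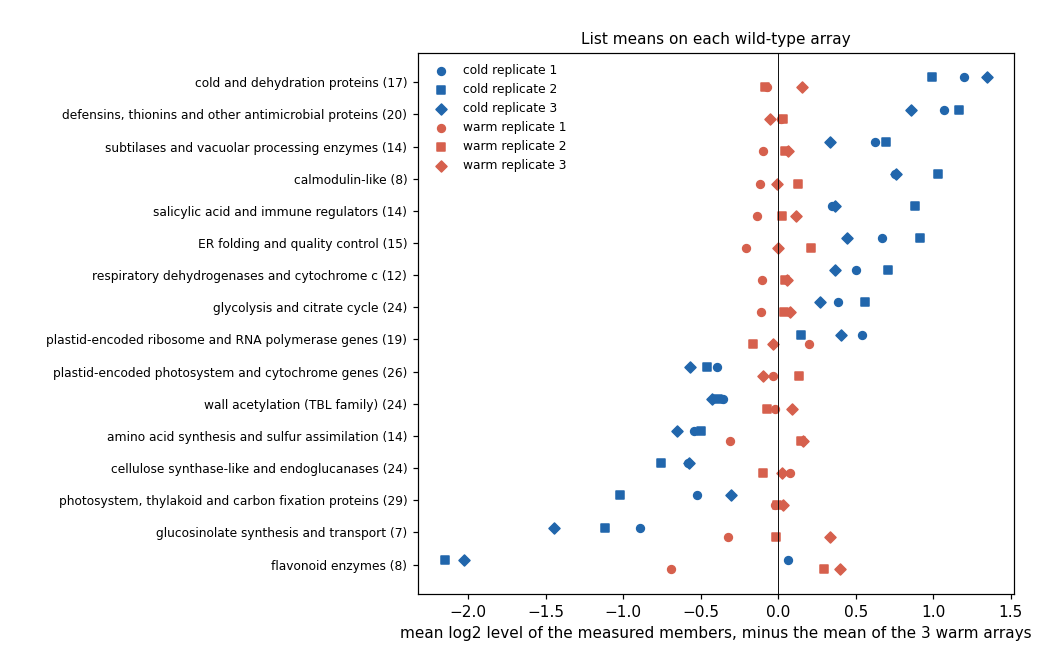
Mean log2 level of the measured members of 16 lists on each array, minus the mean of the 3 warm arrays (x axis, log2), with cold shoots in blue and warm shoots in red and a marker shape for each replicate. Cold replicate 2 (blue squares) is highest in immune and ER lists and lowest in the photosystem list, and cold replicate 1 (blue circle) lies among warm values in the flavonoid list.

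Redox genes changed within families in opposite directions. The methionine sulfoxide reductases MSRB6 and MSRB5 fell by 5.0 and 1.76, and MSRB9 rose by 2.69. MSRB6 had 2.47, 2.47 and 3.54 in cold shoots and 8.33, 6.46 and 8.68 in warm shoots. MSRB9 had 5.26, 5.55 and 4.48 in cold shoots and 2.33, 2.57 and 2.33 in warm shoots, so both contrasts rest on a group near the bottom of the scale. Thioredoxin f2 (TRXF2), which activates plastid enzymes in the light, fell by 1.32, and the mitochondrial thioredoxin TO2 and the glutaredoxin GRXC1 rose by 1.00 and 0.91. The mitochondrial peroxiredoxin PRXIIF rose by 1.00, and the plastid sulfiredoxin SRX fell by 1.23. Calls on TO2, GRXC1, PRXIIF and SRX were lost without cold replicate 2 (limma adjusted p = 0.0696, 0.1002, 0.0826 and 0.152). The aldehyde dehydrogenase ALDH10A9 rose by 1.54 ± 0.13, at 8.46, 8.35 and 8.35 in cold shoots and 6.71, 6.80 and 7.02 in warm shoots, and ALDH11A3 fell by 0.92.

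Defence and immune genes rose in several lists. Of 20 defensins, thionins and other antimicrobial proteins 4 rose and none fell, with 2 rising without cold replicate 1 or warm replicate 1 or 2. Beside LCR69, the putative chitinase CHI (AT2G43570), which is not the chalcone isomerase of that name, had 9.37, 11.12 and 8.71 in cold shoots and 4.26, 5.41 and 4.3 in warm shoots. The chitinase ChiC rose by 2.98 and LCR68 by 0.83. Of 14 salicylic acid and immune regulators 4 rose (28.6%) and 1 fell, with a median of 0.43. WRKY53, a transcription factor of leaf senescence and defence, had 6.89, 8.56 and 6.78 in cold shoots and 3.76, 4.64 and 3.31 in warm shoots (change 3.51 ± 0.65, limma adjusted p = 0.0104). BIK1, a kinase that relays signals of pattern receptors, had 5.76, 7.11 and 6.24 in cold shoots and 4.46, 4.46 and 4.33 in warm shoots. SAG101, a partner of EDS1 in immunity, rose by 1.13, and the phosphatase PIA1 fell by 1.17. Cold replicate 2 was the highest array in CHI, WRKY53, BIK1 and SAG101, and the groups did not overlap in any of them. The list mean was 4.54, 5.07 and 4.56 in cold shoots and 4.06, 4.22 and 4.31 in warm shoots, and 3 or 4 members rose with 1 array left out, but none in the wild-type arrays alone. What set that array apart was not tested.

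Signalling families had 4 rising and 7 falling members among those described here. The calmodulin-like genes CML41 and CML37 rose by 3.04 and 1.57 out of 8, both with warm means under 3. CML41 had 4.41, 7.1 and 5.18 in cold shoots and 2.47, 2.63 and 2.47 in warm shoots. WRKY6 rose by 2.13, though not without cold replicate 2 (limma adjusted p = 0.121). The receptor kinase SD1-29, which senses bacterial hydroxy fatty acids, rose by 1.84, with 6.44, 6.31 and 6.52 in cold shoots and 4.01, 5.39 and 4.36 in warm shoots. PSY1R, a receptor kinase of the peptide PSY1, fell by 1.3, the glutamate receptor GLR3.3 by 0.55 and the lectin gene JAL34 by 1.69. The secreted peptide genes RALFL34 and RALFL24 fell by 2.43 and 1.03 of 17 RALF and CLE genes. In the IQD family of calmodulin-binding proteins IQD24 and iqd32 fell by 1.05 and 0.91, and 13 of 15 members had a lower cold mean. Neither was called without cold replicate 2 (limma adjusted p = 0.0941 and 0.0871), and no IQD gene without cold replicate 1 or warm replicate 1 or 2 or in the wild-type arrays alone.

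Few hormone and clock genes passed the test. Of 19 auxin genes only IAGLU fell, and no ethylene gene or cytokinin response regulator passed, of 4 and 6 measured. Many hormone genes were dim: only 4 auxin genes, 2 cytokinin regulators and 4 of 9 jasmonate genes had a mean above 4. Of all probe sets averaging 2 to 4, only 2.26% were called. Of 7 gibberellin genes the receptor GID1A rose by 0.65, and XERICO, a RING protein, fell by 1.44. The jasmonate methyltransferase JMT fell by 2.00, and the jasmonate transcription factor MYC4 had a change of -0.66 (limma adjusted p = 0.152). Among 20 clock, light and flowering regulators GI rose and SNZ fell. GI, a clock protein that also acts in flowering and cold tolerance, had 9.17, 9.09 and 9.49 in cold shoots and 7.84, 7.47 and 7.42 in warm shoots (change 1.67 ± 0.24, limma adjusted p = 0.00318). SNZ, a floral repressor of the AP2 family, fell by 1.79. None of the 42 AGAMOUS-like genes passed, most of them dim, and in the bZIP family BZIP53 rose by 0.84 beside BZIP60.

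Remaining single genes lay in lipid, transport and nutrient lists. The cytosolic glycerol-3-phosphate dehydrogenase GPDHC1 fell by 1.4 beside PMEAMT among 21 lipid genes, and the wax gene AT4G13840 (CER26) fell by 1.47. AT1G68570 (NPF3.1) rose by 1.59 at 9.86, 9.75 and 9.63 in cold shoots and 8.12, 8.12 and 8.24 in warm shoots, and AT3G21670 (NPF6.4) fell by 1.09. The cation exchanger CHX20 fell by 1.33, the vacuolar ATPase subunit gene AT4G02620 (VHA-F) rose by 0.83, and the iron regulator ILR3 fell by 0.96. The tetraspanin TET8 rose by 1.62, the urease gene URE by 0.48 and the myosin gene XIJ by 0.65, and TRM15 of a cytoskeleton-linked family fell by 0.59. No class III peroxidase of 7 passed, and AT5G64120 (PRX71) had a change of 2.08 (limma adjusted p = 0.0611). The multicopper oxidase LPR2, known from phosphate sensing in roots, had 10.21, 10.38 and 9.88 in cold shoots and 8.86, 9.05 and 9.02 in warm shoots (change 1.18 ± 0.17, limma adjusted p = 0.00343), while LPR1 stayed between 2.75 and 2.78. Of 5 commonly used reference genes AT4G34270 rose by 0.46, and the other 4 did not pass.

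The sid2-1 contrast uses other arrays, 3 cold and 3 warm, in the same fit. It called 728 probe sets higher (3.20%) and 700 lower (3.08%). The 1128 probe sets called in both are 38.2% of the wild-type calls and 79.0% of the sid2-1 calls, and 2835 of the 2956 wild-type calls had the same sign in sid2-1. A test of the difference between both responses called 14 probe sets (0.0615%), of which 13 were also wild-type calls. By gene, sid2-1 gave 5.50% called, 2.89% higher and 2.61% lower, and the test of the difference 0.0674%. In the glycolysis and citrate cycle list 5 genes rose in sid2-1 and in the serine carboxypeptidases 4, against 9 and 3 in wild type. In the ER folding list none rose in sid2-1 and the median change was 0.19, against 5 and 0.50 in wild type, but no gene of that list passed the test of the difference. For the amino acid and sulfur list 3 fell in sid2-1, against 5 in wild type.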

How the data were processed

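Biotin-labelled RNA of whole shoots was hybridized to 1 Affymetrix array per sample. Levels were deposited by the authors on the log2 scale after GCRMA, per the submitters' processing notes, which also name limma. Neither version nor the set of arrays normalized together is given in the sources used here. Values run from 2.2 to 14.46, and 14.7% lie at the lowest value, so changes against a group near it depend on the background correction. Arrays carry no counts, and their number limits the precision.

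Of 22810 probe sets, 64 controls were left out. A mean per group was fitted to the deposited log2 values of all 12 arrays with limma 3.58.1 in R 4.3.3 (lmFit, contrasts.fit, eBayes; 8 residual and 0.61 prior degrees of freedom). Two-sided p-values were adjusted by Benjamini-Hochberg over 22746 probe sets. In data simulated for the wild-type contrast, with 22746 probe sets, 37 of 100 changes of log2 size 1 and 78 of 100 of size 2 were recovered, with 9 false calls. No other probe set was changed, and all those changed had a mean above 4. That is a far smaller share than the 13.0% called here, so these figures need not hold for the real contrast.

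The platform table gave 1 gene to 13513 tested probe sets, several to 503 and none to 8730. Symbols came from RefSeq, found for 13436. Of several probe sets of a gene the brightest was used. Members and the gene lists were chosen with earlier results of these data known, and list counts are descriptions, without a test. The 78 lists were drawn from symbols, which 1535 genes have, so they differ from the processes first planned (cytosolic ribosomal proteins, for example, are not analysed here). The text names the 15 largest rises and falls (called, no overlap, both means above 4), up to 5 called members per list, or 2 with the smallest p where fewer than 2 were called. Other members named, to account for a list or for the paralog of a called gene, were chosen after their values were seen. Python 3.11.15, pandas 2.3.3 and matplotlib 3.10.9 made tables and plots. Alternatives changed the arrays fitted, the scaling, the filter, the moderation, array weights, a replicate block and single replicates.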

Additional observations from a re-analysis of the deposited data

Results flagged for a closer look

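In 2 of the genes named above the cold response of wild type differed from that of sid2-1 by the test of the difference itself, with p-values adjusted over 22746 probe sets. AT5G39670 changed by 3.70 in wild type and by 0.27 in sid2-1 on the log2 scale, a difference of 3.43 ± 0.39 (SE, limma adjusted p = 0.0294). MSRB9 changed by 2.69 in wild type and by -0.07 in sid2-1, a difference of 2.75 ± 0.34 (SE, limma adjusted p = 0.0439). With the replicate number as a block the adjusted p was 0.092 for AT5G39670 and 0.0773 for MSRB9. Leaving out 1 array at a time gave adjusted p-values of 0.0223 to 0.113 for AT5G39670 and of 0.000578 to 0.178 for MSRB9, and both highest values came without warm replicate 1.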

How the results depend on the processing

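Of the settings tried on all 12 arrays, another scaling, moderation, array weights, the filter on dim probe sets and the replicate block each left the counts of wild-type calls within 1.5 times. A fit of the 6 wild-type arrays alone called 1407 probe sets, 784 higher and 623 lower, 1005 of them at least 2-fold. Leaving out 1 array at a time gave 1865 to 2859 calls (lowest without cold replicate 2, and 1888 without warm replicate 3), 995 to 1541 higher (lowest without warm replicate 1) and 824 to 1338 lower, and 1329 to 1910 at least 2-fold. The test of the difference from sid2-1, with 14 calls, gave 30 with dim probe sets left out and 0 to 70 with 1 array left out (0 without warm replicate 1, 70 without cold replicate 3), and the cause was not tested. Alternatives for the difference from sid2-1, and those that leave out a sid2-1 array, were chosen after seeing the data.

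Whether the replicate numbers pair the samples is not settled here. Deviations of same-numbered cold and warm arrays correlated at 0.000126, 0.244 and 0.000883, and those of other pairs at -0.227 to 0.212. With 3 arrays per group the deviations within a group depend on each other, so these correlations cannot exclude a pairing. With the replicate block the 12 arrays gave 1756 higher and 1561 lower calls and 3 for the difference from sid2-1. In the 6 wild-type arrays alone the replicate block gave 112 calls, 54 higher and 58 lower, 80 of them at least 2-fold. Of 191 named genes with a call, 177 kept it with the replicate block on 12 arrays, 123 to 148 with 1 wild-type array left out, 97 in the wild-type arrays alone and 7 with the block on those 6. No setting reversed one. Of 156 counts of functional lists, 23 moved by over 1.5 times with the block on 12 arrays, 34 to 47 with 1 wild-type array left out, 64 in the wild-type arrays alone and 95 with the block on those 6. The search for promoter motifs was not run. The number of arrays, and signals near the bottom of the scale, limit small changes and dim genes.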
